A study of Mus musculus with 19 samples.

Results

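The trophectoderm is the outer epithelium of the blastocyst, and its identity is held by a small set of transcription factors and keratins. Here 9 of these genes, Cdx2, Gata2, Gata3, Tfap2a, Tfap2c, Eomes, Id2, Krt8 and Krt18, were followed in single mouse blastocysts with and without UPF2, a core factor of nonsense-mediated RNA decay (NMD). The genes were taken by name from the 41388 gene identifiers in the count table, and all 9 were present and passed the count filter that left 17137 genes for testing. The tested embryos were 8 Upf2-null (Upf2 -/-) blastocysts and 11 controls (Upf2 +/+), each a whole E3.25 embryo sequenced as 1 library. All came from matings of heterozygous mice whose deleted allele was made by Cre driven by the E2a promoter, which removes exons 2 and 3 between the loxP sites. The dams were superovulated at 4 to 8 weeks of age, the embryos were collected 90 to 94 h after human chorionic gonadotropin, and each was genotyped from its own cDNA. The paper's methods describe early blastocysts of 90 to 94 h as obtained by culture from the zygote. The deletion is described as leaving a truncated protein without NMD activity, and UPF2 of maternal origin may persist at this stage.

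In the mouse embryo, Hippo signalling is low in the outer cells, so that YAP1 and its partner WWTR1 enter the nucleus and act with the DNA-binding factor TEAD4. CDX2 and GATA3 are switched on in these cells. CDX2 represses the pluripotency programme, and EOMES, TFAP2C, GATA2 and TFAP2A act beside it in the trophoblast lineage. ID2, which holds back basic helix-loop-helix factors, is among the earliest markers of outer cells, and KRT8 and KRT18 pair as the first intermediate filaments of the embryo.

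Libraries held 4068350 to 5993745 counts in Upf2-null embryos and 4056072 to 5854659 counts in controls. Between 15547 and 16906 genes had a count in a Upf2-null embryo, and between 14522 and 17084 in a control. Upf2 itself stood at 90.9 ± 21.3 CPM (counts scaled to library size and composition) in the 8 Upf2-null embryos, where the 11 controls had 57.8 ± 16.5 CPM (mean ± SD). These counts include exons outside the deletion and therefore do not test the genotype. Markers of cumulus and granulosa cells, which surround the egg, were near 0: no gene of the 12 reached the count filter, the highest count of any was 9, and Cyp19a1 and Fshr had none. Each value is an average over a whole embryo, so that fewer cells of a type and less RNA per cell cannot be told apart.

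Cdx2 lies on chromosome 5 of GRCm38 (147300805 to 147307270, minus strand), Gata2 on chromosome 6 (88193891 to 88207032, plus strand), and Eomes on chromosome 9 (118478212 to 118486132, plus strand). Id2 lies on chromosome 12 (25093799 to 25097140, minus strand) and Tfap2a on chromosome 13 (40715302 to 40738376, minus strand). Krt8 (101996698 to 102004482, minus strand) and Krt18 (102028180 to 102032027, plus strand) are neighbours on chromosome 15, transcribed away from each other across a gap of 23697 bases. Gata3 (9857078 to 9890034, minus strand) and Tfap2c (172549593 to 172558622, plus strand) share chromosome 2 with Upf2. The gap to Upf2 is 3800375 bases for Gata3 and 166492890 bases for Tfap2c. Whether alleles carried along with the deleted locus moved with Gata3 was not tested.

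In the annotation, none of the 9 genes carries the layout best known to attract NMD. The annotation gives 0 of them a transcript of the NMD class, and no complete coding transcript of any had an exon junction more than 50 bases after its stop codon. In the main transcript of Id2 a junction follows the stop codon by 7 bases, and in the other 8 genes the last junction precedes it. The 3′ UTR of the main transcript is longest in Gata2 (1536 bases), Gata3 (1292 bases), Tfap2c (1246 bases) and Eomes (1120 bases). It is shortest in Krt18, with 66 bases, and in Krt8, with 242 bases. The main transcript is one annotated at the top principal levels or, for genes without one, that with the longest coding sequence. Lower principal levels were not considered. For Tfap2a, which like Eomes has none at the top levels, the main 3′ UTR has 391 bases, and another complete coding transcript has 1813 bases. Assembled models that match no annotated transcript were not examined for any of these features.

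The upstream sequence of 5 members is shown, since these genes carry the patterns of variation between embryos described further on: Cdx2 and Id2 head groups that did not vary together, Krt8 and Krt18 are the adjacent pair, and Gata3 holds most matches to a TFAP2 motif. Each sequence runs from 250 bases before to 50 bases after the start that RefSeq gives on GRCm38.p6, 5′ to 3′ along the gene. Capitals mark matches, on either strand, to 6 searched motifs: GCCNNNGGC for TFAP2 factors, GGAATG for TEAD factors, TTTATNG for CDX factors, AGATAA for GATA factors, GGTGTGA for T-box factors such as EOMES, and the TATA box letters TATAAA.
Cdx2 (chr5:147307200-147307499, minus strand): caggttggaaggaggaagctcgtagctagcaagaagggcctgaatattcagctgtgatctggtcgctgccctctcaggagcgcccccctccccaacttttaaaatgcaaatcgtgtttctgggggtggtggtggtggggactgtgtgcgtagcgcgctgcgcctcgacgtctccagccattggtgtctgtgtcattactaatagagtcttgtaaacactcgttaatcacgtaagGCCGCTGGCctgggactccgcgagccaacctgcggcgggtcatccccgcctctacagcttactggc
Gata3 (chr2:9878551-9878850, minus strand): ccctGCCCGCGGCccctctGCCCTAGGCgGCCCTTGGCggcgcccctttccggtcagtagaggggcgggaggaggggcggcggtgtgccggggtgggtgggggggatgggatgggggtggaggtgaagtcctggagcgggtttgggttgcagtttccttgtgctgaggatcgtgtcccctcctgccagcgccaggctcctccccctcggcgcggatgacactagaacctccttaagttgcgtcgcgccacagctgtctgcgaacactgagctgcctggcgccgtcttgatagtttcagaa
Id2 (chr12:25096043-25096342, minus strand): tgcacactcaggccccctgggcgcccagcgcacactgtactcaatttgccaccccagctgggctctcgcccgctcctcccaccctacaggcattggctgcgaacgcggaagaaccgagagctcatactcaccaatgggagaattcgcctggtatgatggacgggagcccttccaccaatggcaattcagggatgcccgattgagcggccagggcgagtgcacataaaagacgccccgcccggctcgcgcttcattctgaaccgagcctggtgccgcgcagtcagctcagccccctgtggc
Krt8 (chr15:102004293-102004592, minus strand): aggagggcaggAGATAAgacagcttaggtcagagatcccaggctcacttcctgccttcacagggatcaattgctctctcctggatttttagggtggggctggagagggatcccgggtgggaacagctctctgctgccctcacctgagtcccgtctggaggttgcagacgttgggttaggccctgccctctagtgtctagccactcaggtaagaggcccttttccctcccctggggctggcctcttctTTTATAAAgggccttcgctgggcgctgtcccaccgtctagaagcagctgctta
Krt18 (chr15:102027966-102028265, plus strand): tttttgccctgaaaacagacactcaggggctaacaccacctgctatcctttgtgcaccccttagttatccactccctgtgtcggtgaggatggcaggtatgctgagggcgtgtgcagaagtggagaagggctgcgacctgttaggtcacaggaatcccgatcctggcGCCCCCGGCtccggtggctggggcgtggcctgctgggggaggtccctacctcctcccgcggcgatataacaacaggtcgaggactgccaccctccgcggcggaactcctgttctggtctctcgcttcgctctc

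RefSeq promoters were matched for 8 of the 9 genes, with 2 starts each for Gata2 and Tfap2a, which gave 10 windows. The TFAP2 motif, present in 16.6% of all 32851 promoters of the same length, was found once upstream of Cdx2, once upstream of Krt18, 3 times upstream of Gata3 and once at the second Gata2 start. The GATA motif, present in 11.2% of all promoters, was found in 1 copy upstream of Krt8. The same window held 2 overlapping matches to the TATA letters, which occur in 13.6% of promoters. These matches begin at positions -3 and -1 and so lie across the RefSeq start itself. A TEAD motif (14.7% of promoters) lay at the second Gata2 start and a T-box motif (3.98% of promoters) at the first. The CDX motif (10.9% of promoters) was in none of the 10 windows, and the windows of Tfap2a, Eomes and Id2 held none of the 6 motifs. These matches describe letters in a window and are not evidence of binding.

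Levels per kilobase of exon spanned a wide range, with the keratins at the top. Krt18 averaged 286 ± 32.5 CPM per kilobase in Upf2-null embryos and 257 ± 53.5 in controls (SD, n = 8 and 11). Krt8 averaged 175 ± 39.1 CPM per kilobase in Upf2-null embryos and 166 ± 36.02 in controls, and was below Krt18 in all 19 embryos. Id2 came next at 91.1 ± 19.3 CPM per kilobase in Upf2-null embryos and 63.2 ± 26.6 in controls.

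Gata3 and Tfap2c followed at similar levels per kilobase, Gata3 being the higher in 10 of 19 embryos and below Id2 in 13. Their means per kilobase were 58.0 ± 7.81 CPM in Upf2-null embryos and 54.1 ± 19.2 in controls for Gata3. For Tfap2c they were 48.0 ± 19.4 CPM in Upf2-null embryos and 59.7 ± 17.4 in controls. Eomes was lower than Tfap2c in all 19 embryos, and Cdx2 lower than Eomes in 15. Gata2 and Tfap2a were the lowest per kilobase and changed places from embryo to embryo, with Gata2 the higher in 10 of 19. The order between Id2 and Gata3, between Gata3 and Tfap2c, and between Gata2 and Tfap2a thus lay within the spread between embryos.

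The comparison of Upf2-null with control blastocysts asked whether loss of an NMD factor shifts the trophectoderm programme in early blastocysts. None of the 9 genes passed the test (edgeR quasi-likelihood test, Benjamini-Hochberg adjusted p under 0.1), where 33 of 17137 genes, or 0.193%, did (0.175% higher and 0.0175% lower in Upf2-null embryos). At a share this small 9 genes would rarely include a call, so the intervals below carry more than the count. DESeq2 called 1.2% of the genes it tested and limma voom 0.654%, and neither called a member. Groups overlapped for all 9 genes, whereas 0.0934% of all genes had groups that did not overlap. The median log2 fold change, Upf2-null over control, was 0.10 over the 9 genes and -0.02 over all genes tested.

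**Figure D1:**
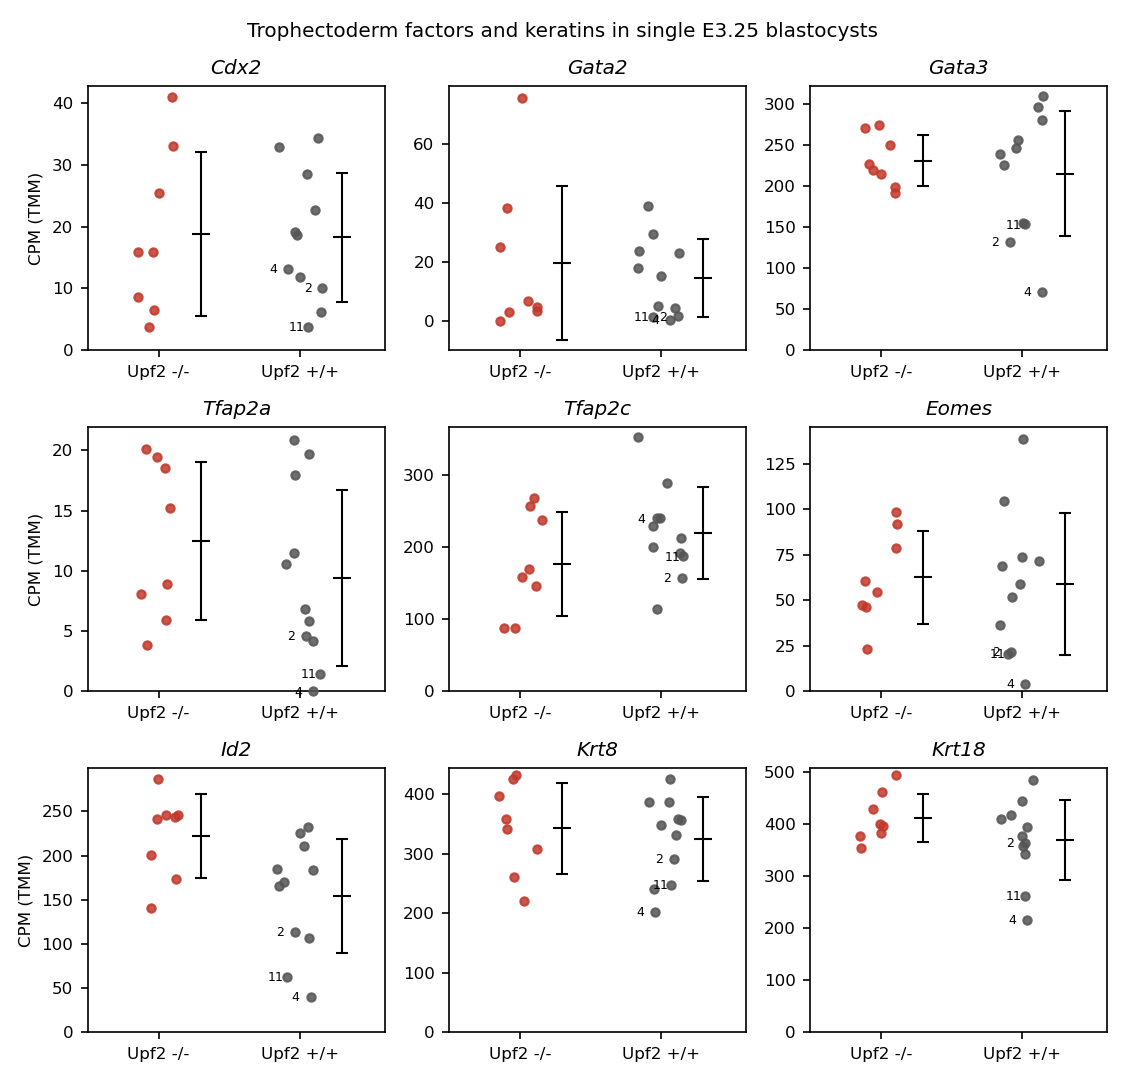
Normalised CPM (vertical axes, each from 0 or, for Gata2, from just below 0) of the 9 genes in single embryos, with Upf2-null (Upf2 -/-, n = 8, red) left of control (Upf2 +/+, n = 11, grey). Each point is an embryo, bars are the mean ± SD, and control embryos 2, 4 and 11 are numbered. The groups overlap for every gene, and control embryo 4 is the lowest control for Gata2, Gata3, Tfap2a, Eomes, Id2, Krt8 and Krt18.

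Cdx2, the caudal-type factor that sets trophectoderm identity, ranged from 3.70 to 40.8 CPM in Upf2-null embryos, with a median of 15.9 CPM. In controls it ranged from 3.77 to 34.3 CPM, with a median of 18.6 CPM. Both genotypes held embryos with little Cdx2 and embryos with much, and the groups lay on top of each other. The log2 fold change was 0.04 ± 0.46 (SE; adjusted p = 0.994 by edgeR), with a 95% interval from -0.92 to 1.00. On the fold scale this interval runs from 0.527 to 2.00, so sizeable changes of Cdx2 in either direction were not detectable at this spread.

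Eomes, a T-box factor of the trophoblast, had 23.3 to 98.6 CPM in Upf2-null embryos (median 57.6). Controls had 4.02 to 139 CPM (median 58.9). Control embryos held both the lowest and the highest values, and the medians were nearly equal. The log2 fold change was 0.09 ± 0.42 (SE; adjusted p = 0.980 by edgeR; 95% interval -0.81 to 0.98).

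The GATA pair differed sharply in precision. Gata3, which acts beside CDX2 downstream of TEAD4, had 192 to 274 CPM in Upf2-null embryos (median 223) and 71.0 to 310 CPM in controls (median 239). Upf2-null embryos lay close together and within the control range. Its log2 fold change was 0.10 ± 0.20 (SE; adjusted p = 0.935 by edgeR; 95% interval -0.32 to 0.53). Gata2, which is known for its part in trophoblast giant cells, was not detected in Upf2-null embryo 1 (0 counts, which allow up to 0.578 CPM at 3 counts), and reached 75.5 CPM in Upf2-null embryo 2 (median 5.72). Controls had 0.211 to 38.9 CPM (median 15.4). Gata2 thus varied widely and by degrees between embryos of both genotypes, and its biological coefficient of variation of 122% exceeded that of 99.2% of genes with at least 10 CPM. The log2 fold change of 0.42 ± 0.86 (SE; adjusted p = 0.940 by edgeR) had a 95% interval from -1.39 to 2.23. With single embryos left out it ran from -0.34 to 0.68, so its sign was not settled.

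The AP-2 factors TFAP2A and TFAP2C belong to 1 family and share a DNA motif. Tfap2a had 3.85 to 20.1 CPM in Upf2-null embryos (median 12.1) and 0 to 20.9 CPM in controls (median 6.87). No count was seen in control embryo 4, which allows up to 0.634 CPM, and Upf2-null embryos had no value as low as those of controls 4 and 11. Its log2 fold change was 0.41 ± 0.60 (SE; adjusted p = 0.900 by edgeR; 95% interval -0.86 to 1.69). Tfap2c had 87.3 to 268 CPM in Upf2-null embryos (median 164) and 114 to 353 CPM in controls (median 213). It was the only member with a negative log2 fold change, -0.31 ± 0.22 (SE; adjusted p = 0.668 by edgeR; 95% interval -0.78 to 0.15). Upf2-null embryos 4 and 7 were its lowest embryos, at 87.3 and 87.6 CPM, and no control was below 114 CPM.

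Id2 had the lowest unadjusted p of the 9 genes. Upf2-null embryos had 140 to 287 CPM (median 242) and controls 40.4 to 232 CPM (median 170). Of the 8 Upf2-null embryos, 7 were above the control median, and control embryos 4 and 11 were the lowest of all 19, at 40.4 and 62.3 CPM. The log2 fold change was 0.53 ± 0.25 (SE; 95% interval -0.01 to 1.06), with p = 0.0495 before adjustment by edgeR and 0.397 after it. Before adjustment 12.5% of all genes had a p under 0.05 (5.15% higher and 7.38% lower), so 1 of 9 is near the background. Without control embryos 2, 4 and 11 the log2 fold change was 0.26 (adjusted p = 0.739 by edgeR), a choice made after the values were seen.

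The keratins were the most evenly expressed members. Krt8 had 221 to 433 CPM in Upf2-null embryos (median 351) and 203 to 427 CPM in controls (median 348). Krt18 had 353 to 494 CPM in Upf2-null embryos (median 398) and 216 to 484 CPM in controls (median 377). Their ranges nearly coincided at the top, and the lowest values of both belonged to control embryo 4. The log2 fold change was 0.08 ± 0.14 for Krt8 (SE; adjusted p = 0.928 by edgeR) and 0.15 ± 0.12 for Krt18 (SE; adjusted p = 0.710 by edgeR). The 95% intervals, from -0.23 to 0.38 and from -0.09 to 0.40, leave room for at most 1.32-fold higher levels of Krt18 in Upf2-null embryos.

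**Figure D2:**
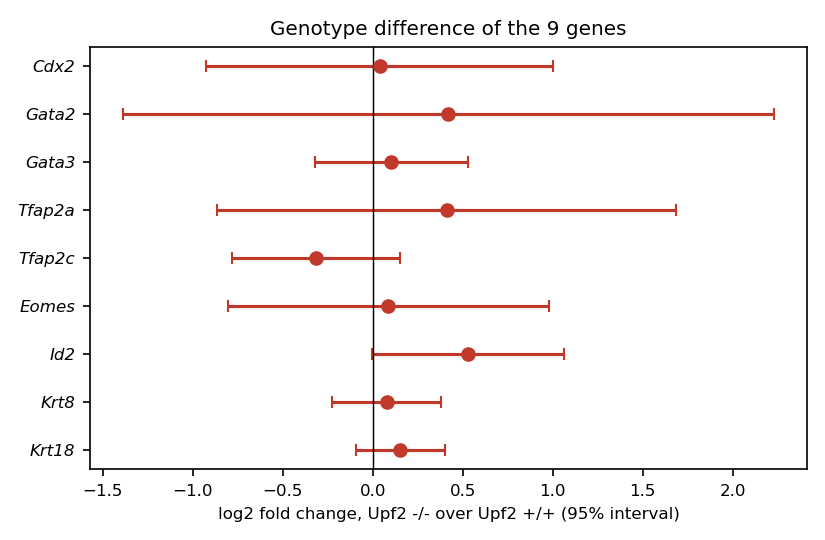
Log2 fold change of each gene, Upf2-null over control (horizontal axis), with its 95% interval from the edgeR standard error and 17 residual degrees of freedom. All 9 intervals include 0, from the narrow one of Krt18 (-0.09 to 0.40) to the wide one of Gata2 (-1.39 to 2.23). That of Id2 does so only just (-0.01 to 1.06), and the edgeR test, with its own degrees of freedom, gave it an unadjusted p of 0.0495.

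Ratios within an embryo ask whether partners or paralogs shift against each other. Keratin 8 and keratin 18 assemble as proteins in equal parts, which RNA counts do not measure. The ratio of Krt8 to Krt18 counts was 0.625 to 0.930 in Upf2-null embryos (median 0.886), against 0.677 to 0.968 in controls (median 0.913). Per kilobase of exon the median ratio was 0.650 in Upf2-null embryos and 0.670 in controls. The difference in mean log2 ratio, Upf2-null minus control, was within the spread between embryos (-0.10, exact permutation p = 0.265, two-sided, 0.397 adjusted over 3 ratios; n = 8 and 11). The ratio of Gata2 to Gata3 reached 0.303 in Upf2-null embryos (median 0.0280), where embryo 1 with no Gata2 count has no measured ratio and entered through the pseudocount of 0.5. It spanned 0.00446 to 0.150 in controls (median 0.0522). The difference in log2 ratio was -0.40 (exact permutation p = 0.734, adjusted 0.734), and -0.22 with a pseudocount of 5. Tfap2a was 0.0166 to 0.212 of Tfap2c in Upf2-null embryos (median 0.0815), and up to 0.158 of it in controls (median 0.0303), where embryo 4 had no Tfap2a count. This ratio differed most, by 1.37 on the log2 scale, and still within the spread (exact permutation p = 0.145, adjusted 0.397). Its size rested in part on control embryos with few Tfap2a counts: without controls 2, 4 and 11 the difference was 0.46.

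No other gene of the lineage list passed the test either. Of 19 further trophectoderm genes 18 were tested, and 0 passed in either direction. Their median log2 fold change was 0.11, with 13 above 0 and 5 below. Tead4, Elf3 and Klf5, factors with roles in the early trophectoderm, had log2 fold changes of -0.17 ± 0.20, -0.18 ± 0.13 and -0.12 ± 0.12 (SE). Hand1, a factor of trophoblast giant cells, was the only gene of the 18 with an unadjusted p under 0.05. It had 0 to 27.6 CPM in Upf2-null embryos (median 3.20) and 0.983 to 164 CPM in controls (median 14.8). Control embryos 4 and 11 held 164 and 150 CPM of it, the next highest being 46.8 CPM in control embryo 2. The log2 fold change was -2.70 ± 1.01 (SE; adjusted p = 0.264 by edgeR), and it was -0.69 (adjusted p = 0.975) without control embryos 2, 4 and 11.

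Of 15 genes for other keratins, desmosomes and the proteins that link keratins to them, 12 were tested and 0 passed, with a median log2 fold change of 0.06. Krt7, another keratin of simple epithelia, averaged 92.8 ± 54.4 CPM in Upf2-null embryos, against 91.9 ± 44.3 CPM in controls. Dsp, the desmosomal plaque protein that anchors keratin filaments, averaged 68.7 ± 28.2 CPM in Upf2-null embryos, against 49.7 ± 28.4 CPM in controls (log2 fold change 0.47 ± 0.34, SE). Krt5, a keratin of basal epidermis, had no counts.

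Among 14 paralogs of the members 12 were tested, and 0 passed by edgeR. Gata1 averaged 44.1 ± 16.5 CPM in Upf2-null embryos, against 79.0 ± 31.7 CPM in controls (log2 fold change -0.84 ± 0.26, SE, adjusted p = 0.245 by edgeR). The authors, testing by DESeq2, reported Gata1 as significantly lower in Upf2-null embryos. Cdx4 and Tbx21 had unadjusted p-values under 0.05 that rested on single Upf2-null embryos: all 11 counts of Cdx4 were in 1 embryo, and 56 of 58 counts of Tbx21 were in 1 embryo. Gata5 likewise had 20 of its 22 Upf2-null counts in 1 embryo. Of 15 regulators in Hippo and Notch signalling upstream of the programme, 14 were tested and 0 passed. Wwtr1, a coactivator of TEAD4, averaged 147 ± 29.5 CPM in Upf2-null embryos, against 176 ± 22.1 CPM in controls (log2 fold change -0.26 ± 0.11, SE; adjusted p = 0.332 by edgeR).

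Epiblast genes stood beside these as the other side of the lineage choice. Of 14 tested, 0 passed by edgeR, and 3 of 14 had a log2 fold change above 0 with a median of -0.29. Their summed level was 1323 to 1577 CPM in Upf2-null embryos, against 1429 to 2116 CPM in controls. Nanog averaged 175 ± 32.2 CPM in Upf2-null embryos, against 243 ± 45.9 CPM in controls (log2 fold change -0.47 ± 0.12, SE; adjusted p = 0.150 by edgeR). Klf2 and Fgf4 also had unadjusted p-values under 0.05, with log2 fold changes of -0.74 ± 0.31 and -2.33 ± 0.76 (SE). The authors, who tested these embryos by DESeq2, reported Nanog and Fgf4 as significantly lower in Upf2-null embryos. They also reported lower levels of epiblast genes as a set and, in stained blastocysts, fewer NANOG-positive cells. Trophectoderm genes as a set and the number of CDX2-positive cells were reported as not significantly different. Primitive endoderm genes summed to 860 to 1070 CPM in Upf2-null embryos, against 791 to 1103 CPM in controls, with 0 of 13 tested genes called. Most of this sum was Dab2, with a mean of 654 CPM, which the paper counts among trophectoderm markers. The sum therefore says little about the other genes of the list, such as Gata4 (mean 3.32 CPM) and Sox17 (1.92 CPM). Oocyte genes summed to 0.531 to 37.7 CPM in Upf2-null embryos, against 3.93 to 89.6 CPM in controls, and 0 of 11 were called; Oosp1 had 0 counts in Upf2-null embryos and 55 in controls.

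Members also varied between embryos of the same genotype, and in part together. Deviations of each embryo's log2 CPM from its genotype mean were correlated for the 36 pairs of members over all 19 embryos. Correlations were called in 21 pairs, all positive (Pearson r from 0.48 to 0.92, permutation within genotype, 100000 draws, two-sided, Benjamini-Hochberg adjusted over 36 pairs, under 0.05). Among all 42674941 pairs of 9239 other genes with at least 10 CPM, 10.5% had an r at or above the smallest called one. The median r was 0.57 over the 36 pairs and -0.01 over all gene pairs. These pairs share embryos and libraries, and members of the trophectoderm programme were listed because of their common role.

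**Figure D3:**
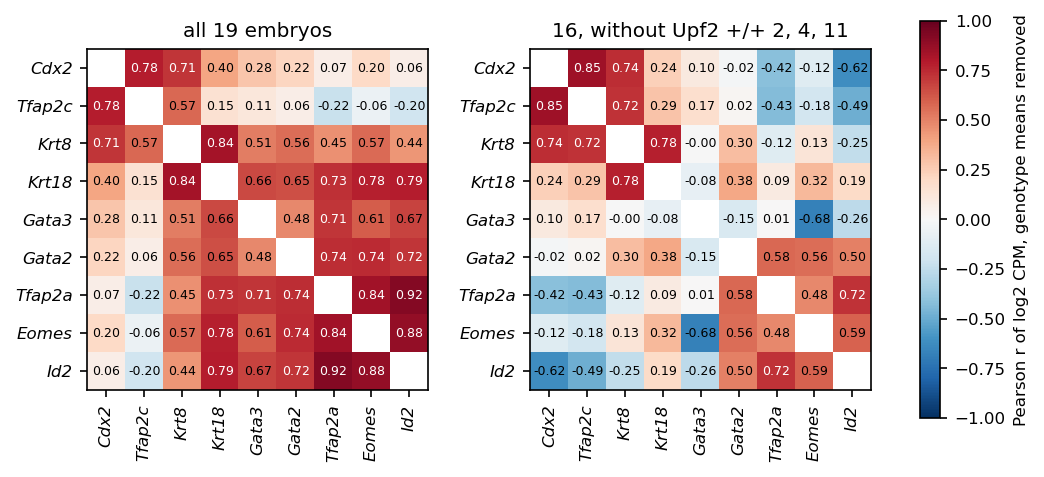
Pearson r of each pair of genes after removal of the genotype means of log2 CPM, in all 19 embryos (left) and in the 16 that remain without control embryos 2, 4 and 11 (right). Colour runs from -1 (blue) to 1 (red). Cdx2 with Tfap2c (0.78 and 0.85) and Krt8 with Krt18 (0.84 and 0.78) are strongly positive on both sides, while Gata3 with Eomes changes sign (0.61 and -0.68).

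A first group held Tfap2a, Eomes, Id2 and Gata2. The highest r of all pairs was that of Tfap2a with Id2, at 0.92 (Spearman rho 0.80, adjusted p = 0.00018 by permutation, with an unadjusted p at the smallest that the draws can give, 1e-05). Eomes followed Id2 with r = 0.88 (rho 0.77) and Tfap2a with r = 0.84 (rho 0.71). Gata2 followed Eomes, Tfap2a and Id2 with r = 0.74, 0.74 and 0.72. Single embryos departed from this: Upf2-null embryo 4 had the highest Id2 of all 19, at 287 CPM, with Tfap2a, Eomes and Gata2 below the mean of its genotype. Without the 2 embryos farthest from the median on the first gene of each pair, r was 0.75 for Tfap2a with Id2, 0.72 for Eomes with Id2 and 0.56 for Tfap2a with Eomes.

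A second group held Cdx2, Tfap2c and Krt8. Cdx2 varied with Tfap2c (r = 0.78, rho 0.79, adjusted p = 0.00096 by permutation), and r was 0.80 without the 2 embryos farthest from the Cdx2 median. The relation had r = 0.91 within the 8 Upf2-null embryos and r = 0.64 within the 11 controls. Cdx2 with Krt8 gave r = 0.71 (rho 0.57, adjusted p = 0.00439), and Tfap2c with Krt8 gave r = 0.57 (rho 0.45, adjusted p = 0.0294). Neither Cdx2 nor Tfap2c had a called relation with any gene of the first group: r was 0.06 for Cdx2 with Id2, 0.07 with Tfap2a and 0.20 with Eomes, and -0.20, -0.22 and -0.06 for Tfap2c with the same 3 genes.

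The keratins fell on different sides. The adjacent keratin genes correlated with each other at r = 0.84 (rho 0.86, adjusted p = 0.00018 by permutation), with 0.84 within Upf2-null embryos and 0.90 within controls. Krt18 followed the first group over all embryos, with r = 0.79 to Id2, 0.78 to Eomes and 0.73 to Tfap2a. These values fell to 0.26, 0.59 and 0.15 without the 2 embryos farthest from the median on Id2, Eomes or Tfap2a. Without controls 2, 4 and 11 they were 0.19, 0.32 and 0.09, and within Upf2-null embryos -0.10, 0.37 and 0.16. Krt18 had no called relation with Cdx2 (0.40) or Tfap2c (0.15). Krt8 had called relations on both sides, with Cdx2 and Tfap2c and also with Eomes (0.57) and Gata2 (0.56). Its r to Eomes and Gata2 was 0.13 and 0.30 without controls 2, 4 and 11. Gata3 had called relations with Tfap2a (r = 0.71), Id2 (0.67), Krt18 (0.66), Krt8 (0.51) and Gata2 (0.48), and of the 21 called relations these 5 moved most when single embryos were left out.

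**Figure D4:**
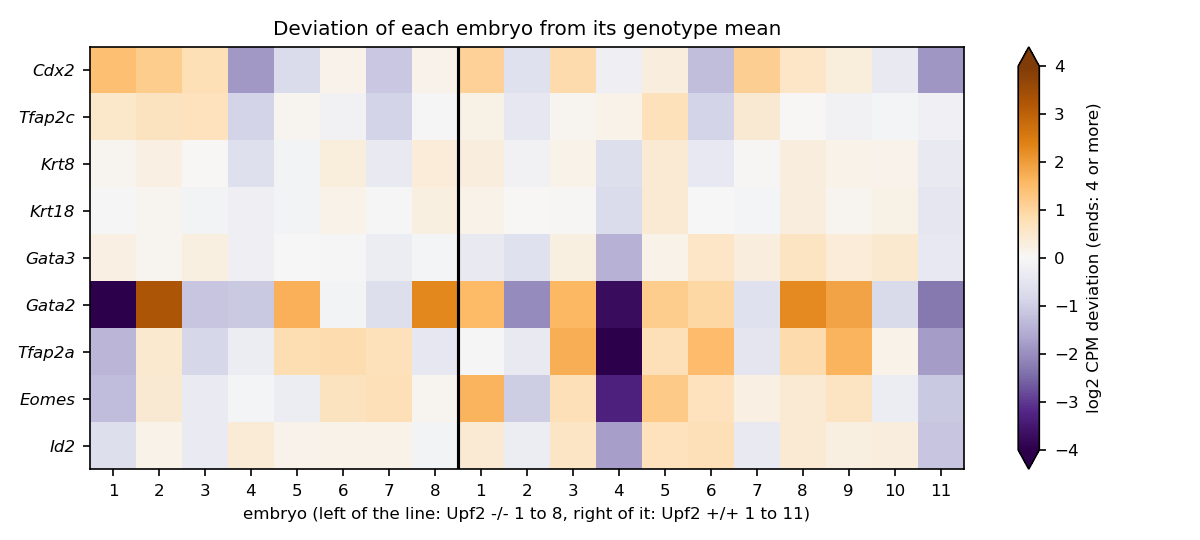
Deviation of each embryo's log2 CPM from the mean of its genotype, with genes as rows and embryos as columns (Upf2-null embryos 1 to 8 left of the line, controls 1 to 11 right of it). Brown is above the mean and purple below. Control embryo 11 is below the mean for all 9 genes and control embryos 2 and 4 for 8 of them, while controls 3, 5 and 8 and Upf2-null embryo 2 are below it for none.

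Some control embryos were low for most members. Control embryo 11 was below its genotype mean for all 9 genes, and control embryos 2 and 4 for 8 of 9. Their CPM summed over the 9 genes were 1095, 788 and 940 in controls 2, 4 and 11, where Upf2-null embryos had 1217 to 1781 and controls as a whole 788 to 1867. Eomes stood at 21.6, 4.02 and 20.7 CPM in these 3 embryos, the lowest of the controls, and Gata2 at 1.54, 0.211 and 1.26 CPM. The same embryos had the highest summed levels of the 14 epiblast genes, at 2116, 1810 and 1802 CPM, with controls 6 and 3 close behind at 1797 and 1751 CPM. The part of embryo stage, cell numbers or library in this was not tested.

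Without control embryo 4 alone 10 pairs were called, and without control embryo 11 alone 13 were. Without controls 2, 4 and 11, a choice made after their values were seen and one that removes low values by construction, 22 of 36 pairs had a positive r in the remaining 16 embryos. Of the 21 called pairs 5 were called there: Cdx2 with Tfap2c (r = 0.85), Krt8 with Krt18 (0.78), Cdx2 with Krt8 (0.74), Tfap2a with Id2 (0.72) and Tfap2c with Krt8 (0.72). Gata3 with Eomes was called with a negative r of -0.68, against 0.61 (adjusted p = 0.0504) in all 19. Cdx2 with Id2, near 0 in all embryos, had r = -0.62. By rank correlation 13 of the 21 pairs were called.

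Within the genotypes the pairs behaved unequally, though the difference itself was not tested. Among the 8 Upf2-null embryos 1 pair was called (exact permutation over 40320 arrangements, adjusted over 36): Gata3 with Tfap2c, with r = 0.95 there and r = -0.11 in controls. Cdx2 with Gata3 had r = 0.87 in Upf2-null embryos and 0.19 in controls, and Cdx2 with Id2 had r = -0.74 in Upf2-null embryos and 0.35 in controls. Among the 11 controls 21 pairs were called, 18 of them also called over all embryos. Controls 2, 4 and 11 are all of 1 genotype, so a wider range in controls and a tighter relation in controls cannot be told apart.

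**Figure D5:**
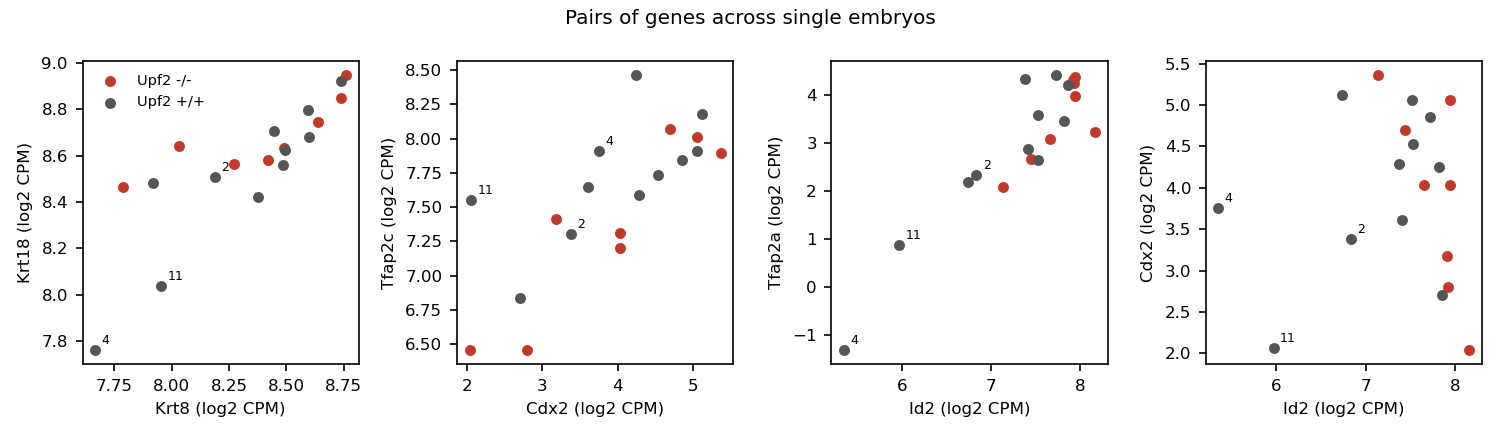
Log2 CPM of 4 pairs of genes in single embryos, Upf2-null (red) and control (grey), with control embryos 2, 4 and 11 numbered. Krt8 with Krt18, Cdx2 with Tfap2c and Id2 with Tfap2a rise together (r = 0.84, 0.78 and 0.92 after removal of the genotype means), while Id2 with Cdx2 shows no common trend (r = 0.06).

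The members were also set against library depth, genes detected and the mean log2 levels of the epiblast, primitive endoderm and oocyte lists, 45 relations in all. No relation with depth or genes detected was called. The strongest of these was Tfap2c with total counts (r = 0.65, rho 0.60, adjusted p = 0.0844 by permutation). Only 1 relation passed, that of Tfap2c with the epiblast list (r = -0.78, rho -0.83, adjusted p = 0.0175 by permutation). It was -0.84 within Upf2-null embryos, -0.72 within controls and -0.72 without the 2 embryos farthest from the list's median. Of the 14 epiblast genes 12 had a negative r to Tfap2c, 7 of them below -0.5. Nanog (r = -0.04) and Sox2 (-0.03), standard markers of the epiblast, were near 0. Zfp42 (0.32) and Pou5f1 (0.85), which encodes OCT4 and is still made in the early trophectoderm, had a positive r. No relation was called within a single genotype, without controls 2, 4 and 11, or after total counts and genes detected were regressed out.

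Some genes from the other lists fell in with 1 group or the other and some with neither, given here as descriptions over 19 embryos. With the Cdx2 and Tfap2c group went Tead4 (r = 0.62 to Cdx2 and 0.88 to Tfap2c), Elf3 (0.81 and 0.82), Klf5 (0.59 and 0.72), Krt7 (0.70 and 0.74) and Nf2, an activator of Hippo signalling (0.63 and 0.88). With the Id2 group went Dppa1 (r = 0.91 to Id2, 0.89 to Tfap2a and 0.84 to Eomes), Tspan8 (0.76, 0.73 and 0.69) and Dsp (0.76, 0.68 and 0.65). Sox2, a marker of the epiblast with a mean of 9.60 CPM, also went with this group (0.81, 0.77 and 0.74). Dppa1 had 191 to 348 CPM in Upf2-null embryos, against 19.4 to 330 CPM in controls, with the 3 lowest values in controls 4, 11 and 2. Hand1 ran against this group, at r = -0.66 to Id2, -0.64 to Tfap2a and -0.64 to Eomes. So did the oocyte gene Zp1 (-0.80, -0.76 and -0.72), at a mean of only 0.54 CPM. Msx2, a homeobox factor, followed Gata2 and Krt8 alike (r = 0.80 to each).

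Among 7835 other genes with at least 20 CPM, those most like Cdx2 over the 19 embryos were Pla2g6 (r = 0.89), Kmt5c (0.87), Ap2a2 (0.87), Nudcd3 (0.87) and Dnm2 (0.86). Those most like Krt8 were Pmvk (r = 0.91), Ppp1r35 (0.91), Rab17 (0.90), Gltp (0.89) and Rras (0.87). The mean of the 9 members was tracked best by Rab11fip4 (r = 0.91), Ikbkb (0.90), Lgals4 (0.90), Klf15 (0.89) and Capn2 (0.88). An r of at least 0.8 was reached by 0.766% of the genes with Cdx2, 0.396% with Krt8 and 0.408% with the mean. These are the extremes of many correlations over few embryos.

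Reads of other genes could reach the counts of some members. Krt8 has a pseudogene, Krt8-ps, with 98.6% identity over 941 aligned bases, and Krt18 has the copy Gm5200 with 90.5% identity over 1267 bases. How the counting treated reads that fit both places was not tested. The Krt18 copy Gm17847 had 12 counts and the Id2 copy Gm6175 had 5 counts over all embryos. On the opposite strand of Tfap2a, Gm26688 shares 380 exon bases and had at most 18 counts in an embryo. Gata3 overlaps Gm13256, 9230102O04Rik and 4930412O13Rik, each with at most 6 counts in an embryo. The authors' assembly of transcripts over all embryos held models that match no annotated transcript for 8 of the 9 genes, 16 for Krt8, 12 for Krt18 and 11 for Gata3, and 0 for Tfap2a.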

How the data were processed

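RNA from 19 single blastocysts was sequenced after full-length cDNA synthesis. The authors aligned reads to GRCm38 with STAR 2.5.2a and counted them per Ensembl gene with featureCounts; these deposited counts, 1 column per embryo, were used for every test. The deposited table of normalized expression was taken as a signal (each count times 1 factor per embryo, with 100% of values whole reads within 0.01), and its log2 values served as an alternative. The merged transcript models of the authors, made with StringTie 1.3.3b, carry a score that was not used, only their structures. The authors added spike-in RNA, which was not used here. Every column of values mapped to a sample by its label.

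Genes that reached 10 counts in 1 embryo or more entered the robust quasi-likelihood test of edgeR 4.0.16 with TMM factors (R 4.3.3), adjusted by Benjamini-Hochberg over 17137 genes. Log2 CPM used a prior count of 2. DESeq2 1.42.0 and limma 3.58.1 were alternatives. Correlations used deviations from genotype means with 100000 permutations within genotype. The 3 count ratios used a pseudocount of 0.5 and exact permutation over 75582 arrangements. Intervals of 95% used 17 degrees of freedom. Positions came from GENCODE M21, for which 40254 of 41388 identifiers had a symbol, and promoters from RefSeq GRCm38.p6. Copies were sought with blastn (at least 200 bases at 85% identity). Of 112 list symbols 110 matched. Besides the 9 members, the text names list genes with an unadjusted p under 0.05, the 5 genes most like Cdx2, Krt8 and the mean of the members, and overlapping genes or copies; other genes named were chosen after their values were seen. The members and lists were chosen with earlier results of these data known. Scripts were tested on simulated data. Figures and permutations were made in Python 3.11.15 with matplotlib 3.10.9, scipy 1.17.1, numpy 2.4.6 and pandas 2.3.3.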

Additional observations from a re-analysis of the deposited data

How the results depend on the processing

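No member was called under any of 32 alternatives to the genotype comparison, while calls over all genes, 33 in the main fit, numbered 176 by DESeq2, 112 by limma voom, 51 with genes detected as a covariate, and 14 to 43 when a single embryo was left out. Replicate numbers do not pair the embryos, since same-numbered embryos correlated from -0.29 to 0.16 and only number 8 matched its own best. With the number as a replicate block over embryos 1 to 8 of each genotype 0 genes were called (318 higher and 371 lower at an unadjusted p under 0.05), and 17 over the same embryos without the block. Log2 fold changes that were small beside their SE turned sign. Cdx2 was -0.22 by limma voom, -0.32 with the block, -0.15 over its embryos without it, -0.063 from the normalized table, -0.12 without control embryo 5 and Upf2-null embryo 2, and -0.22 without controls 2, 4 and 11 (left out after seeing the data). Gata2 was -0.81, -0.19 with the block, -0.22 with genes detected, -0.011, -0.30 and -0.023 under the matching settings. Without controls 2, 4 and 11 Gata3 was -0.13, Eomes -0.28 and Krt8 -0.056, and Eomes was -0.064 over embryos 1 to 8 without the block. Leaving out single embryos gave -0.23 to 0.19 for Cdx2, -0.34 to 0.68 for Gata2 and -0.042 to 0.29 for Eomes. It gave -0.90 to 0.49 for the Gata2 to Gata3 ratio, -0.14 to -0.05 for the keratin ratio and 0.79 to 1.66 for the ratio of Tfap2a to Tfap2c.

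Of the 36 pairs, 21 were called in the main analysis, 13 by Spearman rho, 1 within Upf2-null embryos, 6 without controls 2, 4 and 11, and 10 to 22 with a single embryo left out, fewest without control 4. Relations with library or lineage measures, 1 in the main analysis, numbered 2 by Spearman rho, 1 to 3 with an embryo left out, and 0 without centring, after depth and detection, within either genotype, or without controls 2, 4 and 11. Among the 21 called pairs alone, those that turned negative within Upf2-null embryos were Gata2 with Gata3 (-0.24), Gata3 with Tfap2a (-0.57), Id2 (-0.75) and Krt18 (-0.042), and Id2 with Krt18 (-0.10). Without controls 2, 4 and 11 the called pairs that did so were Gata3 with Gata2 (-0.15), Id2 (-0.26), Krt8 (-0.0043) and Krt18 (-0.081). Over all 36 pairs, 21 had a positive r within Upf2-null embryos and 22 without controls 2, 4 and 11, against 33 in the main analysis. The smaller sets have fewer embryos, and other causes were not tested. Members with few counts, Gata2 and Tfap2a, limit what these depths can show.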
